A study of Homo sapiens with 9 samples.

Results

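The genes described here are 34 genes of meiotic chromosomes, meiotic recombination and germ-cell regulation, measured in HT-29 cells exposed to a DNA methylation inhibitor. They were taken by a list of symbols, and all 34 were found among the 23284 gene symbols of the files. The rule uses no measured value, but the list was chosen with earlier results of these data known. HT-29 is an established human colon cancer cell line. 5-Aza (5-aza-deoxy-cytidine) is a cytidine analog that is built into replicating DNA, where it traps DNA methyltransferases. Cultures received the DMSO vehicle alone (0 µM 5-Aza, the control), 5 µM 5-Aza or 10 µM 5-Aza for 5 days, with 3 biological replicates in each group, and the 9 RNA samples were sequenced as paired-end libraries. The line is a single transformed epithelial line, so the measurements are of germ-line genes in a cell that does not enter meiosis.

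In meiosis, homologous chromosomes are broken, paired and recombined before they are separated. Each chromosome is organised on a protein axis built with meiosis-specific cohesin and HORMA-domain proteins, and the axes of a homologous pair are held together by the synaptonemal complex. SPO11 cuts the DNA at places marked by PRDM9, DMC1 places the broken end on the partner chromosome with help from MND1 and PSMC3IP, and MSH4, MSH5 and RNF212 stabilise the joints that become crossovers. RNA-binding and transcription factors such as DAZL, STRA8, SOHLH1 and BOLL prepare the germ cell for these steps. Many germ-line genes carry methylated CpG-rich promoters in somatic cells, and several of them lose their silencing in cultured cells when methylation is removed.

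Promoter sequences are shown first for the 4 genes with the largest mean level among those called up-regulated at 5 µM with a promoter in the RefSeq table used here. Each sequence is the 250 bases before the RefSeq transcription start, read 5′ to 3′ on the strand of the gene, with every CpG dinucleotide (the site that DNA methyltransferases act on) in capitals. The coordinates are of GRCh37, the assembly called hg19 by the submitters, and were found by an exact match of the RefSeq window.
PSMC3IP, chr17:40729850-40730099, minus strand: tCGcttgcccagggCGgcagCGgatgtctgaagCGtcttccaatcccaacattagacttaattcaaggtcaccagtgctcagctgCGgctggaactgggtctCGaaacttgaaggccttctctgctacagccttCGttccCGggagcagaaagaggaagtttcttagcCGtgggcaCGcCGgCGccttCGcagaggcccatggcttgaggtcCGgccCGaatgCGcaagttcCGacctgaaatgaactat
SYCP2, chr20:58508693-58508942, minus strand: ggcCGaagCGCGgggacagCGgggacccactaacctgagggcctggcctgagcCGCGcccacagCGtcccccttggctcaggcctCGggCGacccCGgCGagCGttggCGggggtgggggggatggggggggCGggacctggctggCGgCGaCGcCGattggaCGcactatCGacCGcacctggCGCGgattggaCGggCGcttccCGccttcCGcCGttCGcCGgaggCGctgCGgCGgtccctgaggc
SYCP3, chr12:102133241-102133490, minus strand: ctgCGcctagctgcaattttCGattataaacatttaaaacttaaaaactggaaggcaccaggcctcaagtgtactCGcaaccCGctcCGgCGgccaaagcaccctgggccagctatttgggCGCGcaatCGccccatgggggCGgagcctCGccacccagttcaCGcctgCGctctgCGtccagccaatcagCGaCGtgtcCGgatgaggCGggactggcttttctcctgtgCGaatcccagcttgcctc
DAZL, chr3:16646931-16647180, minus strand: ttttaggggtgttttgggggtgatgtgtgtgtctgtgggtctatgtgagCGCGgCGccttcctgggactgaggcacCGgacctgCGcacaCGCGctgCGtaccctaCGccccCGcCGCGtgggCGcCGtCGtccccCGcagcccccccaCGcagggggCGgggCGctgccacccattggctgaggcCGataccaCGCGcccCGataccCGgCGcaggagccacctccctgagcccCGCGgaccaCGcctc
The PSMC3IP window held 17 CpG dinucleotides, the SYCP2 window 33, the SYCP3 window 19 and the DAZL window 28, against a median of 11 over the 27303 promoters of the table. In the SYCP3 window, 135 bases also lie in exons of CHPT1, a choline phosphotransferase gene that starts on the opposite strand, and in the SYCP2 window 90 bases lie in exons of FAM217B. All 250 bases of the PSMC3IP window lie in exons of an annotated gene without a symbol. No annotated exon overlapped the DAZL window, which lies inside the span of a longer DAZL transcript.

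Levels are given as the deposited FPKM values (fragments per transcript length and library size), which are used here as relative values only, because those of a library summed to between 3.69e+09 and 5.91e+09. The values step in whole fragments at low levels, so that the number of fragments behind a value could be estimated. The libraries held an estimated 15832175 to 29643928 fragments in the control, 27815750 to 32528656 at 5 µM and 11937361 to 25813725 at 10 µM. The 5 µM libraries were thus the deepest as a group, and between 18761 and 18957 symbols were above 0 in them, against 16373 to 16958 in the control and 17114 to 17592 at 10 µM. Control replicate 3, the library with 29643928 estimated fragments, was deeper than 5 µM replicates 1 and 2. The part of depth in the results was not tested. Estimated fragments carry counting error, and in bulk RNA a change in the number of cells that express a gene and a change in RNA per cell cannot be told apart.

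Of the 34 genes, 15 were above 0 in all 3 control replicates, 30 in all 3 replicates at 5 µM and 18 in all 3 replicates at 10 µM. SYCP1, SPO11 and SOHLH2 were listed at 0 in all 9 libraries. SYCP1 encodes the transverse filament of the synaptonemal complex and SPO11 the enzyme that makes meiotic breaks. The mean level was highest at 5 µM for 24 genes and at 10 µM for 7. With these 3 included, 11 genes were listed at 0 in every control replicate, and 7 of the 11 were above 0 in all 3 replicates at 5 µM (63.6%). Over all symbols listed at 0 in every control replicate (5529), the share above 0 in all 3 replicates at 5 µM was 16%.

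**Figure D1:**
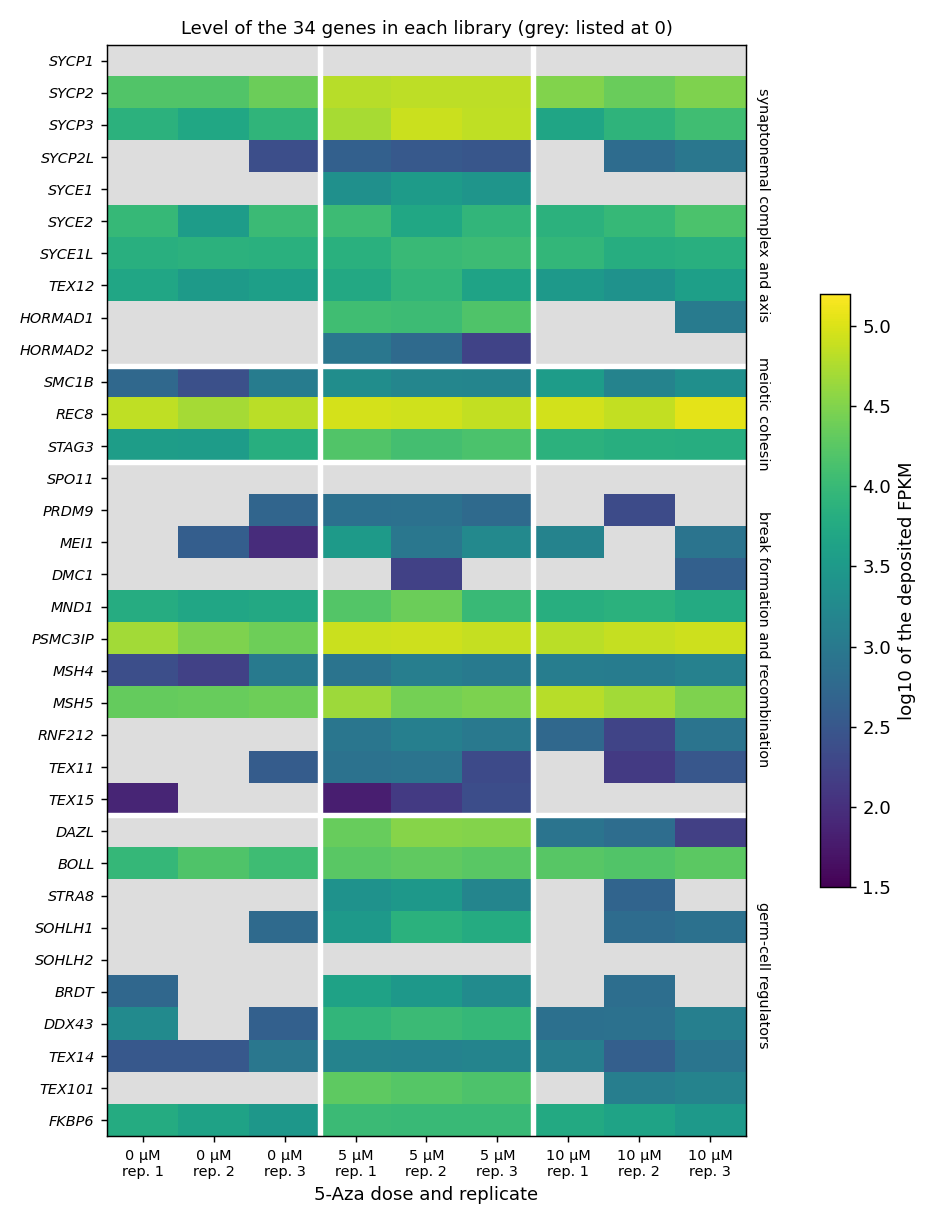
Level of each of the 34 genes (rows, grouped by role) in each of the 9 libraries (columns, by 5-Aza dose and replicate), as log10 of the deposited FPKM, with grey for a value listed at 0. The 5 µM columns hold values above 0 for 30 genes in all 3 replicates, and SYCP1, SPO11 and SOHLH2 are grey throughout.

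Groups were compared in pairs with limma on log2(FPKM + 1), and p values were adjusted by the Benjamini-Hochberg method over all genes tested. A gene was called where the adjusted p was at most 0.05 and the fold change was above 2. A gene was tested where its largest value in the 6 samples reached 10 FPKM, which 31 of the 34 genes did for 5 µM vs. 0 µM. At 5 µM, 15 genes were called up-regulated and none down-regulated, while 14.1% of all 20051 genes tested were called up-regulated and 2.17% down-regulated. All 31 fold changes were above 0 on the log2 scale, so none was lower at an unadjusted p under 0.05 either, and 26 were higher at that level. The filter removed the genes listed at 0 in both groups. A gene listed at 0 in the control could thus enter only through its values at 5 µM, with a fold change above 0. Such genes were SYCE1, HORMAD1, HORMAD2, DMC1, RNF212, DAZL, STRA8 and TEX101. The shares of all genes with a fold change above 0, or higher at an unadjusted p under 0.05, are not given here. With at least 10 estimated fragments required in 1 of the 6 libraries, 23 of the 34 genes could be tested and 13 were called, against 15.7% of all genes under that limit. The 3 values at 5 µM lay above the 3 control values for 24 of the 31 genes, a pattern found in 29.4% of all genes tested. The median log2 fold change over the 31 genes was 3.29, against 0.14 over all genes. With each gene that was listed at 0 in a whole group set to its bound against 3 fragments per library, these medians were 1.62 and 0.00. An exact permutation test of a single gene with 3 against 3 samples cannot give a 2-sided p below 0.1.

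**Figure D2:**
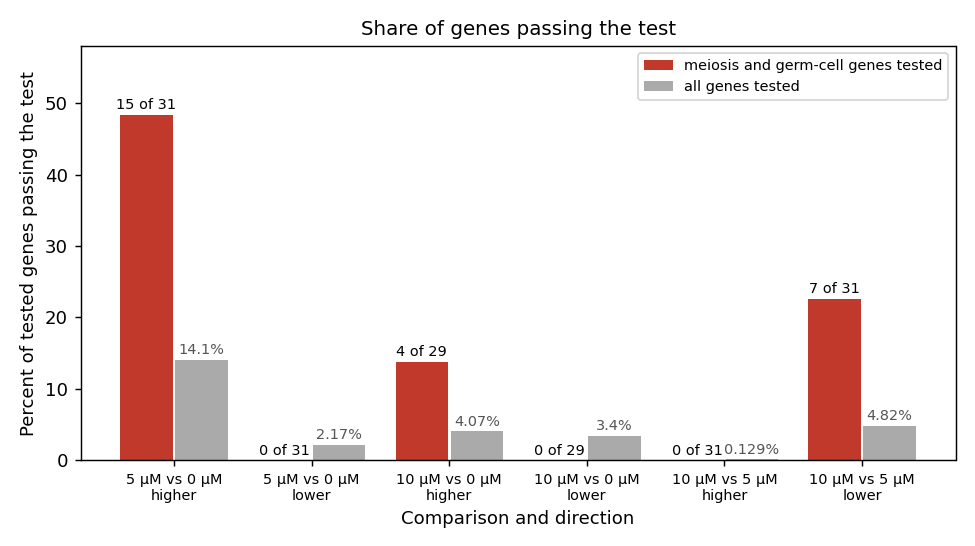
Percent of tested genes called at an adjusted p of at most 0.05 and over 2-fold, for the meiosis and germ-cell genes (red bars, with the number called of the number tested) and for all genes tested (grey bars, with their percentage), by comparison and direction. The red bar is the taller one for 5 µM vs. 0 µM higher, 10 µM vs. 0 µM higher and 10 µM vs. 5 µM lower, and no member was called in the other 3 cases.

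The synaptonemal complex and axis genes held 10 members, of which 9 could be tested at 5 µM and 5 were called up-regulated (SYCP2, SYCP3, SYCE1, HORMAD1 and HORMAD2). SYCP3, on chromosome 12, 102122426 to 102133250, minus strand, encodes a structural protein of the chromosome axis. Its FPKM was 7619, 5046 and 8326 in the control, 52652, 80311 and 70452.5 at 5 µM and 4663, 8009 and 11443 at 10 µM. All 3 values at 5 µM were above every other value, and the control and 10 µM ranges overlapped. The rise at 5 µM was of 3.29 on the log2 scale (standard error 0.25, limma adjusted p = 0.00038). Between 10 µM and 5 µM it was -3.15 (standard error 0.35, adjusted p = 0.00534), a call lost without 5 µM replicate 3, where the adjusted p was 0.0542. At 10 µM against the control the log2 fold change was 0.14 with a 95% confidence interval of -0.86 to 1.13 (adjusted p = 0.835). Of the annotated exon bases of SYCP3, 566 of 3829 lie on CHPT1 exons of the opposite strand. CHPT1 was called down-regulated at 5 µM, from 213492 FPKM on average in the control to 83609.8 (log2 fold change -1.35, limma adjusted p = 0.000328). The part of this overlap in the SYCP3 values was not tested.

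SYCP2, on chromosome 20, 58438619 to 58508710, minus strand, encodes the partner with which SYCP3 forms the axis core, and it stood at a higher level in the control than SYCP3 did. Its FPKM was 15631, 15816 and 23429 in the control, 64378, 68234 and 67208 at 5 µM and 31316, 22556 and 30619.7 at 10 µM. Values at 5 µM lay within a narrow range above all others. SYCP2 rose at 5 µM by 1.89 on the log2 scale (standard error 0.18, limma adjusted p = 0.000662), resting on an estimated 1064, 1071 and 1188 fragments. At 10 µM it was lower than at 5 µM, at -1.26 on the same scale (standard error 0.17, adjusted p = 0.00963). That call was lost when 5 µM replicate 1, 2 or 3 was left out, with log2 fold changes between -1.34 and -1.10 over the 6 leave-one-out fits and an adjusted p of up to 0.0667. Against the control, 10 µM gave a log2 fold change of 0.63 (adjusted p = 0.119), and the ranges overlapped.

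HORMAD1, on chromosome 1, 150670536 to 150693371, minus strand, encodes a HORMA-domain protein that coats unpaired axes, and it is also known as a cancer-testis gene. It was listed at 0 in all 3 control replicates and had FPKM values of 11620.2, 10825 and 14958 at 5 µM. At 10 µM it was listed at 0 in replicates 1 and 2 and stood at 1077 in replicate 3. The 5 µM values rested on an estimated 62, 54.9 and 85.4 fragments, and the value in 10 µM replicate 3 on 4.1. The difference between 5 µM and control was called (limma adjusted p = 0.000182), and no fold change is given against a group listed at 0. The 10 µM values lay below those at 5 µM without passing the test (adjusted p = 0.0684). They passed it with a pseudocount of 100 or 1000, with at least 10 estimated fragments, with all 9 samples in 1 fit and without 10 µM replicate 3 (adjusted p between 0.00152 and 0.0377). HORMAD2, on chromosome 22, 30476453 to 30573064, plus strand, encodes a related axis protein and rested on far fewer fragments. It was listed at 0 in the control and at 10 µM, and its FPKM at 5 µM was 942, 595 and 176, from an estimated 5, 3 and 1 fragments. Both differences were called (adjusted p = 0.00185 against the control and 0.0151 for 10 µM vs. 5 µM). With a pseudocount of 1000 neither call held, and the call at 10 µM was also lost with a pseudocount of 100 and without 5 µM replicate 1, 2 or 3, where the adjusted p reached 0.0611.

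SYCE1, on chromosome 10, 135367405 to 135383339, minus strand, encodes a protein of the central element that joins the paired axes. Every control and 10 µM replicate listed SYCE1 at 0, and it had FPKM values of 2314, 3349 and 2666 at 5 µM, from an estimated 7.7, 10.6 and 9.5 fragments. The change was called in both directions (limma adjusted p = 0.000375 for 5 µM vs. 0 µM and 0.00381 for 10 µM vs. 5 µM), under all 10 other settings and in all 6 leave-one-out fits. SYCE1 shares 2207 of its 4016 annotated exon bases with CYP2E1 on the opposite strand, and the libraries are not stated to keep strand. CYP2E1 itself was above 0 in all 9 libraries, with means of 4502, 5177 and 5413 FPKM in the control, 5 µM and 10 µM groups (adjusted p = 0.553 at 5 µM against the control). The part of this overlap in the SYCE1 values was not tested.

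The other synaptonemal complex genes showed no called difference. SYCE2, which encodes another central element protein, had FPKM means (± SD, n = 3 each) of 7822 ± 3761, 8253 ± 2976 and 10441 ± 3506 in order of dose. At 5 µM against the control its log2 fold change was 0.16 with a 95% confidence interval of -1.08 to 1.40. SYCE1L, a paralog of SYCE1, was above 0 in all 9 libraries, between 6293 and 10716 FPKM, and its 5 µM and control ranges overlapped. TEX12, a central element partner of SYCE2, had means of 4003, 6169.5 and 3174 FPKM in order of dose, with overlapping control and 5 µM values. SYCP2L, a paralog of SYCP2 known from oocytes, reached no more than 922 FPKM and an estimated 6 fragments in any library.

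The meiotic cohesin genes showed 1 call among 3. STAG3, on chromosome 7, 99775186 to 99812010, plus strand, encodes a meiosis-specific subunit of the cohesin ring that holds sister chromatids along the axis. Its FPKM was 3679.7, 3563 and 6664 in the control, 15698, 12381 and 14306 at 5 µM and 7636, 6654 and 6365 at 10 µM. Values at 5 µM lay above all others, and control replicate 3 lay within the 10 µM range. STAG3 rose at 5 µM by 1.66 on the log2 scale (standard error 0.30, limma adjusted p = 0.00675). It fell from 5 µM to 10 µM (log2 fold change -1.03, standard error 0.23, adjusted p = 0.049). That fall was at the limit of the test: it was called without 10 µM replicate 2 and lost without any other of the 6 libraries, with values between -1.13 and -0.96 and an adjusted p of up to 0.2. It was also lost under median-of-ratios scaling, with a pseudocount of 0.1 or 1000, and with all 9 samples in 1 fit. STAG3 has partial copies elsewhere in the genome, and how reads were divided among them is not known. The copies named STAG3L1 to STAG3L4 had control means of 66220 to 132198 FPKM, far above STAG3, and none of them was called in any comparison.

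REC8, on chromosome 14, 24641062 to 24649463, plus strand, encodes the meiotic kleisin subunit that closes the ring, and it stood at a substantial level without treatment. Its FPKM was 68997, 50782 and 66424 in the control, 92462, 84702 and 71403 at 5 µM and 88811.5, 71322 and 111489 at 10 µM. Values at both doses lay above all control values. Neither difference was called, with log2 fold changes of 0.42 (95% confidence interval 0.04 to 0.80, limma adjusted p = 0.0763) and 0.53 (adjusted p = 0.115). SMC1B, the meiotic partner of SMC3, was above 0 in all libraries with control values of 566, 250 and 1149 FPKM, 5 µM values of 2040.0, 1569 and 1540.2 and 10 µM values of 3564, 1409.6 and 2218. Both treated groups lay above the control for SMC1B without passing the test (adjusted p = 0.0966 and 0.106). The cohesins of dividing somatic cells stood much higher on the same per-length scale. SMC1B was between 0.0841% and 0.444% of SMC1A in the control libraries and between 0.649% and 1.06% at 5 µM, STAG3 between 0.88% and 1.91% of STAG2 and then between 4.22% and 7.69%, and REC8 between 2.59% and 3.91% of RAD21 and then between 4.83% and 7.38%. At 10 µM the shares were between 0.482% and 1.67% for SMC1B, between 2.35% and 4.39% for STAG3 and between 4.29% and 10.1% for REC8. Lower levels of the somatic cohesins enter these shares, since the means of SMC1A, STAG2 and RAD21 were 282755, 386780.0 and 1881670 FPKM in the control and 214916, 255635 and 1453770 at 5 µM.

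The recombination genes held 11 members, and 10 of them could be tested. PSMC3IP, on chromosome 17, 40724328 to 40729849, minus strand, encodes HOP2, which works with MND1 to let DMC1 invade the partner chromosome. It had the highest 5 µM mean of the 15 genes called at that dose. Its FPKM was 48473, 30625 and 23833 in the control, 79529.5, 81928 and 74633 at 5 µM and 65032, 75595 and 83504 at 10 µM. Both treated groups lay above all control values, and the treated ranges overlapped each other. PSMC3IP was called up-regulated at 5 µM (log2 fold change 1.26, standard error 0.25, limma adjusted p = 0.00973) and at 10 µM (1.18, standard error 0.27, adjusted p = 0.0313). The call at 10 µM did not hold without the filter on low values, nor without control replicate 2 or 3 or 10 µM replicate 1 or 3, where the log2 fold change lay between 0.95 and 1.46 over all 6 leave-one-out fits and the adjusted p reached 0.113. PSMC3IP shares 775 of 2578 exon bases with MLX on the opposite strand, and MLX was not called in any comparison, with means of 471789, 408025 and 285068 FPKM in order of dose. The part of this overlap in the PSMC3IP values was not tested.

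MND1, on chromosome 4, 154265801 to 154336270, plus strand, is the partner of PSMC3IP. Its FPKM was 6253, 4832 and 5369 in the control, 16464, 23253 and 10125 at 5 µM and 6560.4, 7265 and 5803 at 10 µM. Values at 5 µM were the highest but varied more than those of the other groups, and the control and 10 µM ranges overlapped. The rise at 5 µM was called (log2 fold change 1.53, standard error 0.33, limma adjusted p = 0.0134) and was lost without 5 µM replicate 1 (largest adjusted p 0.0546). In the 10 µM libraries PSMC3IP kept 94.9% of its 5 µM mean and MND1 39.4%.

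RNF212, on chromosome 4, 1050038 to 1107352, minus strand, encodes a RING-finger protein of crossover sites. All control replicates listed RNF212 at 0, and its FPKM was 895, 1256 and 985 at 5 µM and 565, 179 and 844 at 10 µM. These values rested on few fragments, an estimated 6.1, 8.2 and 7.2 at 5 µM and 2, 1 and 4.1 at 10 µM. Both doses were called against the control (limma adjusted p = 0.000677 and 0.0185). The call at 10 µM was lost with a pseudocount of 1000 and without control replicate 2 or 10 µM replicate 1 or 3 (adjusted p up to 0.077). MSH5, on chromosome 6, 31707454 to 31730453, plus strand, encodes a MutS protein that clamps recombination joints. Its FPKM was 21239.5, 21637.5 and 23825.5 in the control, 45488, 26386 and 29783 at 5 µM and 64030.3, 48748 and 30233 at 10 µM. All treated values lay above all control values. MSH5 was called only at 10 µM (log2 fold change 1.04, standard error 0.28, adjusted p = 0.0492, against 0.57 and 0.0838 at 5 µM), and the difference between the doses was not called (0.47, adjusted p = 0.403). The call held in 1 of 6 leave-one-out fits, without 10 µM replicate 3, and was lost with a pseudocount of 0.1 and without the filter (adjusted p up to 0.147 over the leave-one-out fits). MSH5 has 8 entries, and with the largest entry in place of their sum the log2 fold change at 10 µM was the same (1.04). MSH5 is uncertain because 2788 of its 6284 exon bases belong also to the readthrough gene MSH5-SAPCD1, which had means of 26376, 28445.5 and 35806 FPKM, and the neighbouring SAPCD1 was called up-regulated at 10 µM as well (log2 fold change 1.07, adjusted p = 0.0208).

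The other 6 recombination genes with a value above 0 were not called in any comparison. DMC1, the meiosis-specific strand exchange protein, was listed at 0 in 7 of 9 libraries, with 1 estimated fragment in 5 µM replicate 2 and 2 in 10 µM replicate 3. PRDM9, the histone methyltransferase that marks break sites, had FPKM values of 729, 767 and 596 at 5 µM from an estimated 8, 8 and 7 fragments, was listed at 0 in control replicates 1 and 2, and stood at 513 in control replicate 3. PRDM7, a near-identical copy outside the 34 genes, had means of 107, 1126 and 384 FPKM in order of dose. It was called up-regulated at 5 µM (limma adjusted p = 0.0491), and how reads were divided between PRDM9 and PRDM7 is not known. MEI1, a factor for break formation, ranged from 923 to 3300 FPKM at 5 µM, from an estimated 39, 10.4 and 21.7 fragments, and up to 399 in the control, and it was called with a pseudocount of 1000 (log2 fold change 1.29, adjusted p = 0.0131). MSH4, the partner of MSH5, had means of 487, 1029 and 1202 FPKM in order of dose. TEX11, an X-linked gene for a protein of recombination sites, reached 832 FPKM, and TEX15, a germ-line protein needed for break repair and silencing, reached 239. Adjusted p values of the 6 genes lay between 0.0875 and 0.433 at 5 µM against the control (limma). In control replicate 3, the deepest control library, PRDM9, TEX11, SOHLH1 and SYCP2L were each above 0 while both other control replicates were listed at 0, from an estimated 1.9 to 5 fragments.

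The germ-cell regulators held the largest number of calls, 6 of the 9 that could be tested at 5 µM. DAZL, on chromosome 3, 16628299 to 16711813, minus strand, encodes an RNA-binding protein of the DAZ family that controls translation in germ cells. The 3 control replicates listed DAZL at 0. Its FPKM was 21911, 33529 and 32708 at 5 µM and 846, 669 and 158 at 10 µM, from an estimated 189, 275 and 302 and 3.9, 4.8 and 1 fragments. The groups did not overlap, and the 10 µM mean was 1.90% of the 5 µM mean. All 3 comparisons were called, with limma adjusted p = 0.000129 for 5 µM vs. 0 µM, 0.0189 for 10 µM vs. 0 µM and 0.00522 for 10 µM vs. 5 µM (log2 fold change -6.01, standard error 0.66). The call between 10 µM and control was lost with a pseudocount of 1000 and without control replicate 2 or 10 µM replicate 1 or 3 (adjusted p up to 0.0617), and that between the doses was lost without 5 µM replicate 3 (adjusted p = 0.0535). Control replicate 3, which was deeper than 5 µM replicates 1 and 2, listed DAZL at 0, and the part of depth in the DAZL values was not tested.

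TEX101, on chromosome 19, 43905648 to 43922749, plus strand, encodes a membrane protein of germ cells and mature sperm. It was listed at 0 in the control and in 10 µM replicate 1, stood at 1199 and 1416 FPKM in the other 10 µM replicates, and had FPKM values of 19025, 16859.7 and 14664 at 5 µM. The estimated fragments were 57, 48 and 47 at 5 µM and 3 in each of the other 10 µM replicates. It was called at 5 µM against the control (limma adjusted p = 0.00016). The lower level at 10 µM was not called (adjusted p = 0.159), although the ranges did not overlap. It was called with a pseudocount of 100 or 1000 (adjusted p = 0.0222 and 0.00236) and without 10 µM replicate 1 (0.00709).

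STRA8, on chromosome 7, 134916731 to 134943415, plus strand, is induced by retinoic acid and is required for entry into meiosis. It was listed at 0 in the control, had FPKM values of 2439, 2995 and 1520.2 at 5 µM, and was above 0 at 10 µM in replicate 2 alone, at 487. The STRA8 values came from an estimated 6, 7 and 4 fragments in the 5 µM libraries, where the gene was called (limma adjusted p = 0.000445), and from 1 fragment at 10 µM. SOHLH1, on chromosome 9, 138585253 to 138596344, minus strand, encodes a helix-loop-helix transcription factor of spermatogonia and oocytes. Its FPKM was 0, 0 and 595 in the control, 3219.9, 7224 and 5927 at 5 µM and 0, 633 and 747 at 10 µM. All 5 µM values were above all others. The rise was called (adjusted p = 0.0305), but its size depended on the pseudocount, with a log2 fold change of 9.26 with 1 and 2.41 with 1000. It was lost without the filter, with all 9 samples in 1 fit, and without control replicate 1 or 2 or 5 µM replicate 1, 2 or 3 (adjusted p up to 0.102). Its partner SOHLH2 was listed at 0 throughout.

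BRDT, on chromosome 1, 92414900 to 92479983, plus strand, encodes the testis-specific member of the BET bromodomain family, which reads acetylated histones. Its FPKM was 544, 0 and 0 in the control, 4242, 3006 and 1952 at 5 µM and 0, 677 and 0 at 10 µM. Every 5 µM value was above every other value. BRDT was called at 5 µM (limma adjusted p = 0.0394), with a log2 fold change of 8.48 with a pseudocount of 1 and 1.78 with 1000. That call was lost with a pseudocount of 0.1, without the filter, with all 9 samples in 1 fit, and without control replicate 2 or 3 or 5 µM replicate 1, 2 or 3 (adjusted p up to 0.124).

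FKBP6, on chromosome 7, 72742164 to 72772646, plus strand, encodes an immunophilin of spermatocytes that takes part in transposon silencing. Its FPKM was 5941, 4339.5 and 2841 in the control, 10435, 10063 and 10239 at 5 µM and 5537, 4434 and 3123 at 10 µM. Values at 5 µM lay close together and above all others, and the control and 10 µM ranges overlapped. At 5 µM FKBP6 was higher by 1.29 on the log2 scale (standard error 0.31, limma adjusted p = 0.0195), and the call was lost without 5 µM replicate 1, 2 or 3 (adjusted p up to 0.0669). DDX43, on chromosome 6, 74104551 to 74127289, plus strand, encodes a DEAD-box helicase known as the cancer-testis antigen HAGE. Its FPKM was 1842, 0 and 431 in the control, 8552, 10477.5 and 9068 at 5 µM and 725, 764 and 1263 at 10 µM. Values at 5 µM were the highest, from an estimated 59.5, 69.2 and 67.4 fragments, and control replicate 1 lay above all 10 µM values. DDX43 was not called at 5 µM against the control (adjusted p = 0.097), where 1 control value was 0 and another 1842. It was called with a pseudocount of 100 or 1000 (log2 fold change 4.33 and 2.69) and without control replicate 1 or 2 (adjusted p = 0.0391 and 0.0136). It was called lower at 10 µM than at 5 µM (log2 fold change -3.39, standard error 0.39, adjusted p = 0.00587), a call lost with all 9 samples in 1 fit and without 5 µM replicate 3 (adjusted p = 0.0522 in the latter). DDX43 shares 306 of 2724 exon bases with OOEP on the opposite strand. OOEP was not called in any comparison, but its 5 µM values lay above all others, with means of 620, 4053 and 595 FPKM in order of dose. The part of this overlap in the DDX43 values was not tested.

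BOLL, the oldest member of the DAZ family, did not need treatment to be measured. Its FPKM was 9225, 15175 and 11288 in the control, 18183, 20048 and 17808 at 5 µM and 17327, 15555.5 and 18359.9 at 10 µM. Both treated groups lay above the control, and at 5 µM the difference was significant but under 2-fold (log2 fold change 0.68, standard error 0.22, limma adjusted p = 0.0481). TEX14, a protein of the bridges between germ cells, had 5 µM values of 1448, 1379 and 1483 FPKM, above its control values of 332, 329.6 and 932, without passing the test (adjusted p = 0.0726).

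**Figure D3:**
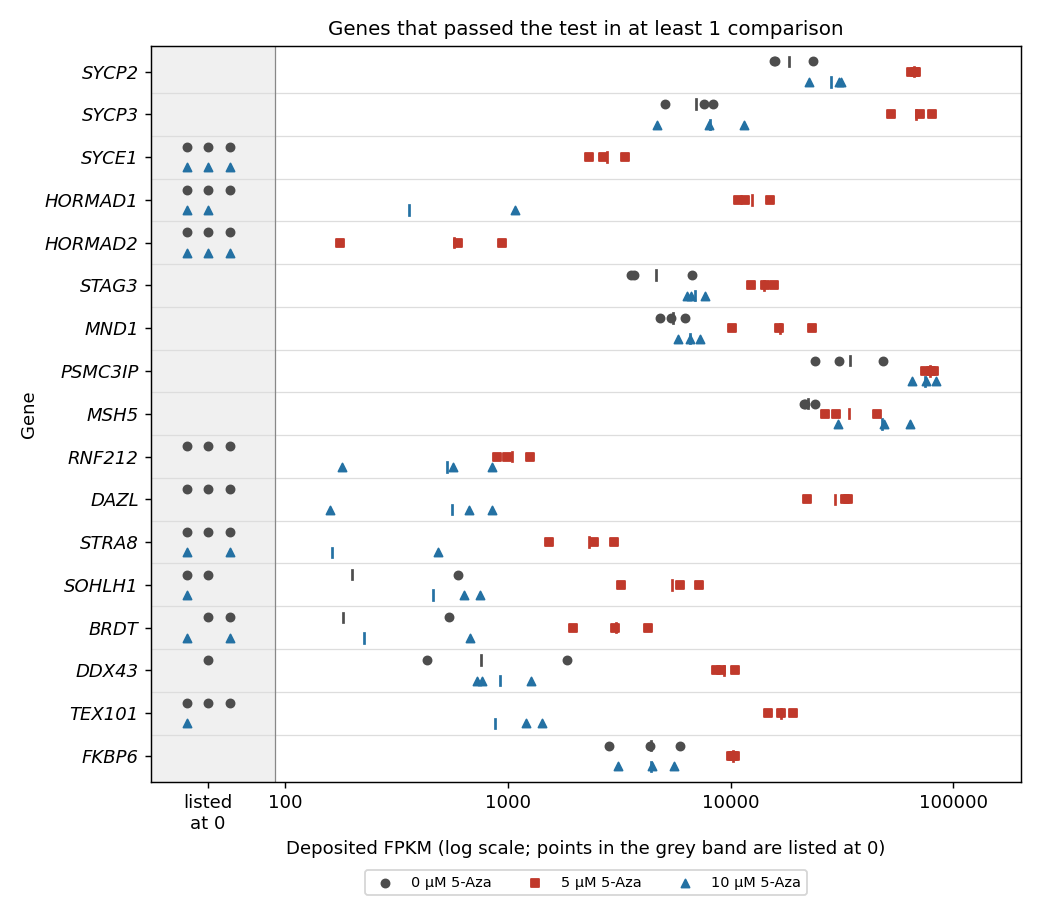
FPKM (horizontal, log scale) of the 17 genes called in at least 1 comparison (rows), with 1 point per library (circles 0 µM, squares 5 µM, triangles 10 µM), a vertical tick at each group mean above 0, and libraries listed at 0 in the grey band. The 5 µM squares lie to the right of all other points except in PSMC3IP and MSH5, where they share a range with 10 µM.

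The question of dose was put by comparing 10 µM with the control and with 5 µM, comparisons that share samples with each other and with the one above. Against the control, 29 genes could be tested at 10 µM and 4 were called up-regulated (DAZL, RNF212, MSH5 and PSMC3IP), while 4.07% of all 18928 genes tested were called up-regulated. None was called down-regulated, against 3.4% of all genes, and none was lower at an unadjusted p under 0.05. The ranges did not overlap for 8 of the 29 genes, all with 10 µM above the control, a pattern found in 14.4% of all genes. None of the 4 calls held in all 6 leave-one-out fits, and the number called was 0 without control replicate 2, 1 without 10 µM replicate 1, 1 without 10 µM replicate 3 and 2 without control replicate 3. From 5 µM to 10 µM, 7 of 31 genes were called down-regulated (SYCP2, SYCP3, SYCE1, HORMAD2, STAG3, DAZL and DDX43), against 4.82% of all 20085 genes tested, and none up-regulated, against 0.129%, also at an unadjusted p under 0.05. A gene listed at 0 in a whole group passed the filter only through the other group, so its direction was fixed in advance. Among the genes called, this holds for DAZL and RNF212 at 10 µM against the control and for SYCE1 and HORMAD2 from 5 µM to 10 µM. Non-overlapping values with 10 µM above 5 µM were found for none of the 31 genes and in 4.37% of all genes. The 10 µM values lay below the 5 µM values without overlap for 19 of the 31 genes, and for 25.3% of all genes. The number called down-regulated was 1 without 5 µM replicate 3, 4 without 5 µM replicate 1 or without 5 µM replicate 2, and 12 without 10 µM replicate 2. The median log2 fold change of the 31 genes from 5 µM to 10 µM was -1.27, against -0.31 over all genes, or -1.23 and -0.24 with genes listed at 0 in 1 group at their bound. Scaling by median of ratios moved the median of all genes present in every library of a comparison by 0.24 on the log2 scale at 10 µM against either other group and by 0.04 for 5 µM vs. 0 µM, and after it 7 of the genes were called down-regulated from 5 µM to 10 µM, STAG3 no longer among them.

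The 15 genes called at 5 µM differed in how much of their level was found at 10 µM. The 10 µM mean was under 50% of the 5 µM mean for 13 of them, and the 10 µM values lay below all 5 µM values for 14. PSMC3IP was the gene whose 2 treated groups overlapped. Over all genes tested, 25.3% had 10 µM values below all 5 µM values. The 15 genes were chosen by high 5 µM values, which enter this comparison too, so lower values at 10 µM are in part built in. The share among all genes called up-regulated at 5 µM is not given here. Of the 7 genes listed at 0 in the control and called at 5 µM, DAZL and RNF212 were above 0 in all 3 replicates at 10 µM, HORMAD1, STRA8 and TEX101 in 1 or 2 replicates, and SYCE1 and HORMAD2 in none. The libraries with 10 µM held fewer fragments than those with 5 µM, so for genes with under 10 estimated fragments at 5 µM a value of 0 at 10 µM does not show that the gene was absent.

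Of 30 further meiosis genes, 28 were found and 27 could be tested, and 6 were called up-regulated at 5 µM (BRIP1, CCDC79, EXO1, MAEL, SGOL2 and TEX19), against 14.1% of all genes tested, and none down-regulated. MAEL, which acts in the piRNA pathway that silences transposons, was listed at 0 in the control and had FPKM values of 156341, 197270.0 and 164360.0 at 5 µM and 7114, 15007 and 16827 at 10 µM (limma adjusted p = 7.35e-05 and 0.00219). The MAEL values at 5 µM were above those of every one of the 34 genes. SGOL2, a shugoshin that protects cohesin at centromeres in mitosis as well as meiosis, had FPKM means (± SD, n = 3 each) of 14210.4 ± 2524 without and 32941 ± 2945 with 5 µM (log2 fold change 1.22, adjusted p = 0.00231). TEX19, a germ-line gene for a transposon control protein, rose from a mean of 1726 to 14047 FPKM (adjusted p = 0.00745), and EXO1, an exonuclease of mismatch repair and crossing over, from 1902 to 7423 FPKM (adjusted p = 0.00196). At 10 µM only MAEL of this list was called against the control (1 of 25, against 4.07% of all genes), and MAEL and SYCE3 were called lower at 10 µM than at 5 µM.

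Of 23 further germ-cell regulators, 19 could be tested and 5 were called up-regulated at 5 µM (CTCFL, DDX4, TAF7L, TDRD1 and TDRD9), against 14.1% of all genes. TDRD9 and TDRD1, Tudor-domain proteins of the piRNA pathway, were listed at 0 in the control and had FPKM values of 15180.2, 14509 and 18529 and of 7375, 9158 and 8824 at 5 µM (limma adjusted p = 0.000161 and 0.000202). Both were also called at 10 µM against the control, with FPKM values of 1977, 1751 and 394 and of 419, 353 and 521. DDX4, the germ-cell helicase VASA, was listed at 0 in the control and had FPKM values of 5055, 2087 and 2575 at 5 µM (adjusted p = 0.0004). TAF7L, a germ-cell paralog of the general transcription factor TAF7, had FPKM values of 772, 0 and 181 in the control and 15981, 16893 and 13970.1 at 5 µM (adjusted p = 0.0352). DPPA3 and DAZ1 were listed at 0 in all libraries.

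MGA, MAX, E2F6, PCGF6 and their partners form a repressor complex (PRC1.6) known to keep germ-line genes silent in somatic cells. None of 13 such genes was called in any comparison. Of all genes tested, 14.1% were called up-regulated and 2.17% down-regulated at 5 µM, and 4.07% and 3.4% at 10 µM against the control. From 5 µM to 10 µM these shares were 0.129% and 4.82%. At an unadjusted p under 0.05 (limma), 1 of the 13 was higher and 3 lower at 5 µM. At 10 µM against the control, 5 were lower and none higher. The part of this complex in the results was not tested. TFDP1, a dimer partner of E2F proteins, was lower at 5 µM by less than 2-fold (log2 fold change -0.55, limma adjusted p = 0.0104). The members of the complex with the highest means over the 9 libraries were HDAC1, CBX3, TFDP1 and MAX, with means of 1053160, 876095, 805675 and 269155 FPKM in the control and 893943, 766373, 549894 and 308965 FPKM at 5 µM.

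Colon epithelial markers were read to check the labelled cell type. All 10 (among them KRT8, KRT18, KRT20, EPCAM, CDH1 and VIL1) were above 0 in all 9 libraries, and their summed level ranged from 82854700 to 99292400 FPKM in the control, from 35216400 to 39881200 at 5 µM and from 27544500 to 48303700 at 10 µM. KRT8 and KRT18 were called down-regulated at 5 µM (log2 fold change -1.65 and -1.64, limma adjusted p = 0.00113 and 0.000999), against 2.17% of all genes. CDX1 and CEACAM5 were called up-regulated, against 14.1%. At 10 µM, CDX2 and KRT20 were called down-regulated against the control (3.4% of all genes), and CEACAM5 against 5 µM (4.82%). At an unadjusted p under 0.05, 6 of the 10 were lower and 2 higher at 5 µM. At 10 µM against the control, 7 were lower and 1 higher. Means of KRT20 were 5974900, 4328230 and 2502620 FPKM in order of dose, and those of CEACAM5 191688, 577268 and 290158. Of 10 markers of fibroblasts and blood cells, 5 were called up-regulated at 5 µM (CD3E, CD79A, COL1A1, COL1A2 and LUM), against 14.1% of all genes, and their summed level was 64688 to 85940 FPKM in the control, 187674 to 211231 at 5 µM and 109288 to 132409 at 10 µM. CD79A, a B-cell receptor subunit, had means of 8368, 79001 and 23316.5 FPKM in order of dose, COL1A1 6567, 37114 and 21563, and LUM 19747, 45742 and 26165. CD14, a monocyte receptor and the marker with the highest control mean, was not called, with means of 40513.5, 37791 and 45132 FPKM. PTPRC, which marks all white blood cells, was at or below 983 FPKM in every library, DCN was listed at 0 in all 3 libraries at 5 µM, and HBB in all 3 control libraries. The part of other cells in the results was not tested.

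Promoters were found in the RefSeq table for 30 of the 34 genes. Their upstream windows of 250 bases held a median of 19.5 CpG dinucleotides and a median observed-to-expected CpG ratio of 0.83, against 11 and 0.56 over all 27303 promoters. The 14 windows of genes called at 5 µM and the 16 others were close, with medians of 20.5 and 19 CpG. STRA8 had no CpG and TEX101 had 2 in the window, and both were listed at 0 in the control and called at 5 µM. MND1 and SYCP2, with 33 CpG each, and SYCE2, with 32, had the richest windows, and of these SYCE2 was not called.

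**Figure D4:**
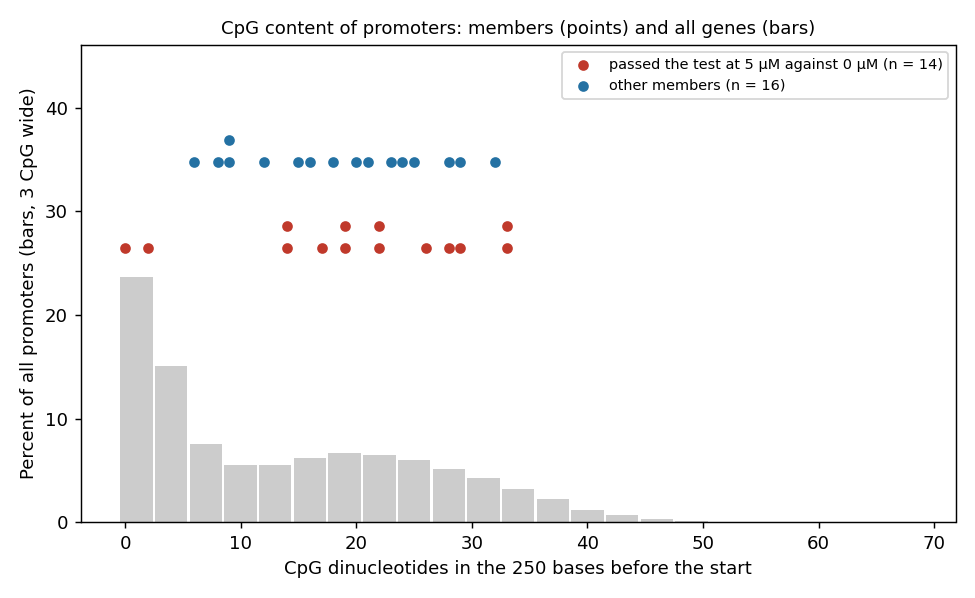
Number of CpG dinucleotides in the 250 bases before the start (horizontal), for all 27303 RefSeq promoters (grey bars, percent of promoters in bins 3 CpG wide) and for the 30 members with a promoter (points, placed by CpG number only, stacked where equal). The red points (14 genes called at 5 µM) range from 0 to 33 and the blue points (16 other members) from 6 to 32, with STRA8 and TEX101 the red points below 6.

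Motifs were searched on both strands of the same windows. CACGTG, an E-box that MAX dimers can bind, was present in 3 of 30 windows (10.0%), in SYCE1L, SOHLH1 and BRDT, against 6.5% of all promoters. CACGTG holds a CpG, and among windows with at least 15 CpG it was present in 1 of 21 members (4.8%) and in 9.4% of all promoters. GCGGGAA, a form of the E2F site, was present in 7 of 30 windows (23.3%) against 5.6% of all promoters. The motif itself holds a CpG, and among windows with at least 15 CpG it was present in 6 of 21 members (28.6%) and in 10.2% of all promoters. Of the 14 genes called at 5 µM, 2 held GCGGGAA (14.3%), and of the 16 others 5 did (31.2%). In the SYCP2 window printed above it lies on the reverse strand, 48 bases before the start. TGACGT, a part of the cAMP response element, was present in 1 of 30 windows (3.3%) against 7.4% of all promoters. It holds a CpG too, and among windows with at least 15 CpG the shares were 4.8% of members and 10.7% of all promoters. A match of these letters is a description of the window and not a measured binding site.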

How the data were processed

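RNA of 9 HT-29 cultures (3 each at 0, 5 and 10 µM 5-Aza) was sequenced as paired-end libraries. The authors trimmed and filtered the reads, aligned them to hg19 with TopHat (named also in the submitters' processing notes), and ran Cufflinks. They deposited 1 FPKM value per entry and sample, with no pooling of replicates, and some symbols have more than 1 entry. The genome is described as the Ensembl reference, and the version of the gene annotation is not given in the sources used here. Groups and replicate numbers came from the sample labels.

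FPKM values of repeated symbols (543 of 23284 symbols) were summed. Groups were compared in pairs with limma 3.58.1 in R 4.3.3 (functions lmFit and eBayes, the latter with a trend on mean level) on log2(FPKM + 1), on which scale every fold change is given, without a replicate block, over all genes that reached 10 FPKM in 1 of the 6 samples. Benjamini-Hochberg adjustment ran over all genes tested. A fold change on this scale depends on the pseudocount where a group holds zeros, and none is given against a group listed at 0. An exact 0 can be a failed estimate, so a gene is said only to be listed at 0.

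Fragments were estimated from the step between low values, which at 12 microRNA genes of 110 nucleotides gave whole multiples for 100% of 46 values (tolerance 0.01), and from annotated length. Of 467 longer genes with clean steps, 286 lay within 15% of the length relation, and 18041 genes received an estimate. Estimates were used as a description of depth and not as counts in a test. Positions and exon overlaps are of a GRCh37 annotation, and promoters of the RefSeq table for GRCh38.p14, of which 30 of 34 symbols matched. Scripts used Python 3.11.15, pandas 2.3.3 and numpy 2.4.6.

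Data were simulated with 200 genes changed by 2 on the log2 scale. In 5 µM vs. 0 µM, 100% of well covered changed genes were recovered (12345 genes tested). Of thinly covered ones, 97.0% of those passing the filter were recovered (12365 genes tested), and those it removed are not in that share. Unchanged genes called numbered 7 and 3 in turn. In the files 1 fragment was worth 366 to 942 FPKM at 1000 nucleotides, and in the simulation far less, so the pseudocount weighed more there. These shares thus do not describe the test on genes with few fragments or values of 0. The 34 genes and the other gene lists were chosen with earlier results of these data known, so that their counts are a description and not independent evidence. The list of somatic relatives of the meiotic genes is not reported here as a whole. All 34 genes are accounted for, those called in any comparison with every value. From each other list, up to 4 called genes with the largest mean over the 9 samples are given with values, or up to 4 uncalled ones where none was called. Alternatives were pseudocounts of 0.1, 100 and 1000, no filter, 10 FPKM in all 3 replicates of a group, 10 estimated fragments in 1 sample, all 9 samples in 1 fit, the replicate number as a block, no fold threshold, median-of-ratios scaling, the largest entry of repeated symbols, and each replicate left out in turn.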

Additional observations from a re-analysis of the deposited data

How the results depend on the processing

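The number of genes called up-regulated at 5 µM against the control was 15 and stayed between 13 and 18 under the alternatives other than leaving out a replicate, and between 11 and 20 with 1 replicate left out. At 10 µM against the control it was 4, and it was 2 with a pseudocount of 1000, 2 without the filter and 2 with at least 10 estimated fragments, and between 0 and 3 with 1 replicate left out. The number called down-regulated from 5 µM to 10 µM was 7, and it was 12 with a pseudocount of 100 and 11 with a pseudocount of 1000, and between 1 and 12 with 1 replicate left out. No gene was called in the opposite direction in any of these 3 comparisons under any alternative. Of the fold changes of the 17 genes called at least once, 1 changed sign outside the leave-one-out fits, that of PSMC3IP from 5 µM to 10 µM, which was 0.16 under median-of-ratios scaling. With 1 replicate left out, uncalled fold changes that took both signs were, at 10 µM against the control, those of BRDT (-3.03 to 3.14, with -1.41 without control replicate 2 or 3), DDX43 (-0.0063 to 5.42), FKBP6 (-0.26 to 0.27, with -0.17 and -0.0090) and SYCP3 (-0.16 to 0.48, with -0.08), and from 5 µM to 10 µM that of PSMC3IP (-0.17 to 0.015). The cause was not tested. Samples with the same replicate number did not deviate from their group means together (correlations between -0.31 and 0.22 over 9 pairs, against -0.28 and 0.21 over 18 pairs of different numbers), so the number does not pair them. With the replicate block, 15, 3 and 5 genes were called in the 3 comparisons in place of 15, 4 and 7. Genes under 10 estimated fragments in every library are limited by counting error, and fewer calls in a leave-one-out fit come with fewer samples.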

Other observations

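Spermatid genes are those of the later haploid phase, when chromatin is condensed and the acrosome and tail are built. Of 20 such genes, TNP1, ODF1, AKAP4, ZPBP and CAPZA3 were listed at 0 in all 9 libraries, 11 were listed at 0 in all 3 control libraries and 6 in all 3 libraries at 5 µM. Of the 14 that could be tested at 5 µM, 3 were called up-regulated (HSPA1L, LDHC and PRM2), against 14.1% of all genes, and the same 3 symbols were called down-regulated from 5 µM to 10 µM. HSPA1L, a testis-enriched heat shock protein, had FPKM values of 15747, 17859.8 and 16900.2 in the control, 53834, 56336.5 and 57367 at 5 µM and 20478, 24927 and 18894 at 10 µM (limma adjusted p = 0.000207 for 5 µM vs. 0 µM). LDHC, the lactate dehydrogenase of sperm, had FPKM values of 0, 497 and 0 in the control and 2806, 8858 and 4080.0 at 5 µM and was listed at 0 in all 3 libraries at 10 µM (adjusted p = 0.0292 and 0.00345). PRM2, a protamine that replaces histones in sperm, was listed at 0 in the control and at 10 µM and had FPKM values of 2025, 710.5 and 3155 at 5 µM (adjusted p = 0.000726). The number of spermatid genes called at 10 µM against the control was 0 of 12 with limma, and 1 was lower at an unadjusted p under 0.05.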
